A study of Drosophila melanogaster with 12 samples.

Results

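Genic piRNA sources of ovarian somatic cells were described in 2 wild-type rescues, one after knockdown of Armi and one after knockdown of Daed. Small RNAs bound to Piwi had been sequenced in both, and a gene was kept when it had at least 10 RPM (reads scaled to the size of the library) in at least 3 of the 6 libraries. Of the 17469 genes deposited, 3798 passed (21.7%), and 3165 of them had at least 10 RPM in all 6 libraries. Among the rest, 60 passed with all 3 Armi libraries and no Daed library, and 54 with all 3 Daed libraries and no Armi library. Of genes named below, the former include CG34109, Cda5, ey, Fas3 and Eip93F, and the latter include daed. Such genes passed only through the group where they were high, so their membership is no support for their difference. Closest to the threshold, Stoml2, ReepB and Zip48C passed with a third-highest value of 10.03 RPM, and ghi, Rsph1 and Wsck failed with 9.93 RPM.

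The cells were OSCs, a Drosophila melanogaster line of ovarian somatic cells that make piRNAs with Piwi alone. In both groups the endogenous protein had been depleted by siRNA, a plasmid and more siRNA had been introduced after 48 h, and cells had been harvested after another 48 h. The Daed WT rescue carried Flag-tagged wild-type Daed after daed knockdown, and the Armi WT rescue carried Flag-tagged wild-type Armi after armi knockdown, with 3 libraries each. Piwi had been immunoprecipitated with a monoclonal antibody and RNAs of 20 to 40 nt had been cloned. Every library therefore came from cells with a knockdown and a plasmid, and no library without a knockdown was analysed here. The target of the knockdown, the plasmid and any difference in preparation go together, and their parts in a difference cannot be told apart.

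In the ovarian soma piRNA precursors come from transposon-rich clusters, chiefly flam, and from the 3′ UTRs of some mRNAs, with tj the classic example. Precursors are handled at the Yb body, where the helicase Armi acts, and are then cut by the endonuclease Zuc at the mitochondrial surface, where Daed and Gasz sit. Mature piRNAs guide Piwi in the nucleus to silence transposons, while the role of most genic piRNAs is less clear.

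The Daed libraries held 1961721, 1812139 and 1396369 reads and the Armi libraries 3828687, 2335292 and 2654833 reads. Whether replicates came from separate cultures is not stated, so p-values measure only how far these libraries spread, which may be technical. Library profiles correlated across members with r of 0.982 to 0.991 within a group and 0.934 to 0.948 between groups (log2 values, a description). Replicate 3 of the Armi WT rescue stood apart from its mates. The chi-square per degree of freedom of its gene counts against theirs was 5.93 and 5.73, against 1.46 to 1.95 for the other pairs of a group. Its clearest excess, picked out after the values were seen, was in noncoding RNA genes. For lncRNA:CR44206 the Armi libraries gave 798, 707 and 3532 RPM and the Daed libraries 1965, 1325 and 1734 RPM.

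Of 10 follicle cell genes measured 8 were members, from tj down to Fas3, a cell adhesion gene with means of 6.17 and 17.3 RPM in the Daed and Armi WT rescue, and the other 2, cas and slbo, had means under 1 RPM. Fas3 met the 10 RPM threshold through the Armi libraries alone. After tj the most abundant was zfh1, a transcription factor of the gonadal soma, at 398 ± 8.26 RPM (SD, n = 3) in the Daed and 508 ± 31.1 RPM in the Armi WT rescue. The germline markers vas, bam, rhi, zpg and otu had means under 2 RPM in both groups, as did the blood cell genes Hml, NimC1 and He. The other 4 of the 7 blood cell genes had more reads, with group means of 27.5 and 25.5 RPM at ush and of 169.6 and 191.6 RPM at crq, a scavenger receptor gene. Among 20 germline markers measured, 7 were members, including tud (310 and 374 RPM on average), spn-E (137 and 175 RPM) and pgc (354 and 296 RPM). Of the 7, 4 were higher in the Armi WT rescue, none of them in all 4 scalings described below. The gene pgc was lower (-0.26 ± 0.10, adjusted p = 0.043, limma), a call lost on centring (adjusted p = 0.15). The summed level of the 20 germline markers ran from 912 to 958 RPM in the Daed libraries and from 988 to 1043 RPM in the Armi libraries. Their part in other differences was not tested. Of the blood, neuron and muscle lists, 0 of 3, 1 of 2 and 2 of 2 members were higher. The higher neuron member was elav, at 368 RPM in the Daed and 475 RPM in the Armi WT rescue, and futsch did not pass. The muscle pair was bt and sls, whose giant proteins belong to the sarcomere, and sls gave 1243 RPM in the Daed and 1983 RPM in the Armi WT rescue, although the defining muscle genes Mhc and up had group means under 2 RPM. A piRNA level shows a source of piRNAs, not the level of the transcript.

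The knocked-down genes were both members and went opposite ways. Reads of armi, at 267, 290.3 and 310.1 RPM in the Daed WT rescue, reached 864, 857 and 913 RPM in the Armi WT rescue. All 3 Armi libraries thus lay above all Daed libraries at armi, although this was the gene targeted there. The log2 fold change (Armi WT rescue over Daed WT rescue, on the log2(RPM + 1) scale throughout) was 1.60 ± 0.08 (SE), with an adjusted p of 6.2e-14 (limma, Benjamini-Hochberg). Reads of daed were 32.1, 27.6 and 31.5 RPM in the Daed WT rescue, again the group in which the gene was targeted and supplied, and 2.61, 4.71 and 3.01 RPM in the Armi WT rescue. The difference at daed was -2.85 ± 0.24 (adjusted p = 2.6e-10, limma). Each group was thus high at the gene that its plasmid carried. Reads from plasmid, siRNA and endogenous transcript cannot be told apart, and armi lies wholly within the span of CG46463.

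The nuclease gene zuc stayed below the 10 RPM threshold, at 1.25 RPM on average in the Daed and 3.79 RPM in the Armi WT rescue. Its difference of 1.12 ± 0.39 (adjusted p = 0.031, limma) was lost on scaling to the gene-table total (adjusted p = 0.089) and without any of 4 libraries in turn (adjusted p of 0.059 to 0.14, limma).

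Genes took a larger part of the Piwi-bound reads in the Armi WT rescue. Reads assigned to genes made up 50.8, 50.5 and 49.2% of the Daed libraries and 64.0, 64.3 and 61.9% of the Armi libraries. The groups did not overlap, with means of 50.2 ± 0.812% and 63.4 ± 1.32% and a difference of 13.2 percentage points. The exact two-sided permutation p was 0.1, the smallest that 3 against 3 libraries allow, for this and for each share below whose groups did not overlap. Members held 96.8% of the gene reads in the Daed and 97.7% in the Armi WT rescue.

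The most abundant source in every library was flam, the transposon-rich cluster on the X chromosome (dm6, X:21631891-21790731). It gave 25114, 28387 and 28211 RPM in the Daed WT rescue and 21052, 20733 and 20770 RPM in the Armi WT rescue. The Armi libraries were all lower at flam and close together, with a log2 fold change of -0.38 ± 0.07 (adjusted p = 2e-04, limma). As a share of gene reads, flam took 5.43 ± 0.423% in the Daed and 3.29 ± 0.0655% in the Armi WT rescue, without overlap.

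Transcripts of tj (2L:19464267-19467758), which encodes a Maf transcription factor of gonadal somatic cells, were the next most abundant source. They gave 7401, 8022 and 7949 RPM in the Daed and 12839, 13673 and 12219 RPM in the Armi WT rescue. Every Armi library was above every Daed library at tj, opposite to flam, with a difference of 0.73 ± 0.07 (adjusted p = 9.4e-09, limma). Per kilobase of locus tj was the densest source, at 2231 RPM per kb in the Daed and 3697 RPM per kb in the Armi WT rescue. Next by this measure came Sec61beta, a subunit of the protein translocation channel, with 1025 and 2053 RPM per kb, then CG6700 with 637 and 1110, and the importin gene msk with 807 and 841.

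Of the 10 most abundant members, flam, DIP-alpha and CG11360 were lower in the Armi WT rescue, tj, Myc and CG6700 were higher, and 4 did not pass the test. The growth regulator Myc gave 7551, 7617 and 6268 RPM in the Daed and 10597, 11248 and 8538 RPM in the Armi WT rescue (0.50 ± 0.09, adjusted p = 9.7e-05, limma). The Armi libraries were all higher at Myc, but the call was lost on scaling to the gene-table total (0.16, adjusted p = 0.12, limma), and its locus lies within lncRNA:CR44999. CG6700 was higher (3101 ± 278 to 5400 ± 324 RPM, 0.80 ± 0.08), and DIP-alpha, an immunoglobulin-domain protein of neuronal surfaces, was lower (4408 ± 170.1 to 3005 ± 70.8 RPM, -0.55 ± 0.07). CG11360 was slightly lower (3738 ± 82.9 to 3124 ± 166 RPM, -0.26 ± 0.07), a call lost without Daed replicate 2 (adjusted p = 0.058, limma) and on centring (adjusted p = 0.082). The tumour suppressor genes l(2)gl and brat, with differences of 0.09 and 0.05, did not pass the test, nor did crol (0.18) or msk (0.07). Scaled to the gene-table total, all 4 signs turned and all 4 passed as lower, l(2)gl at -0.24 (adjusted p = 0.002), brat at -0.29 (adjusted p = 0.0021), crol at -0.16 (adjusted p = 0.038) and msk at -0.26 (adjusted p = 0.02, limma).

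Together the 10 genes held 14.6 ± 0.230% of gene reads in the Daed and 12.1 ± 0.280% in the Armi WT rescue, without overlap. Without flam the other 9 held 9.14 ± 0.301% and 8.76 ± 0.339%, and the groups overlapped. The pool of the Armi WT rescue was flatter at the top and narrower in the tail. The genes needed for 50% of gene reads numbered 184, 183 and 184 in the Daed and 193, 191 and 199 in the Armi libraries. Those needed for 90% numbered 1928, 1919 and 1917 in the Daed and 1640, 1623 and 1714 in the Armi libraries.

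**Figure D1:**
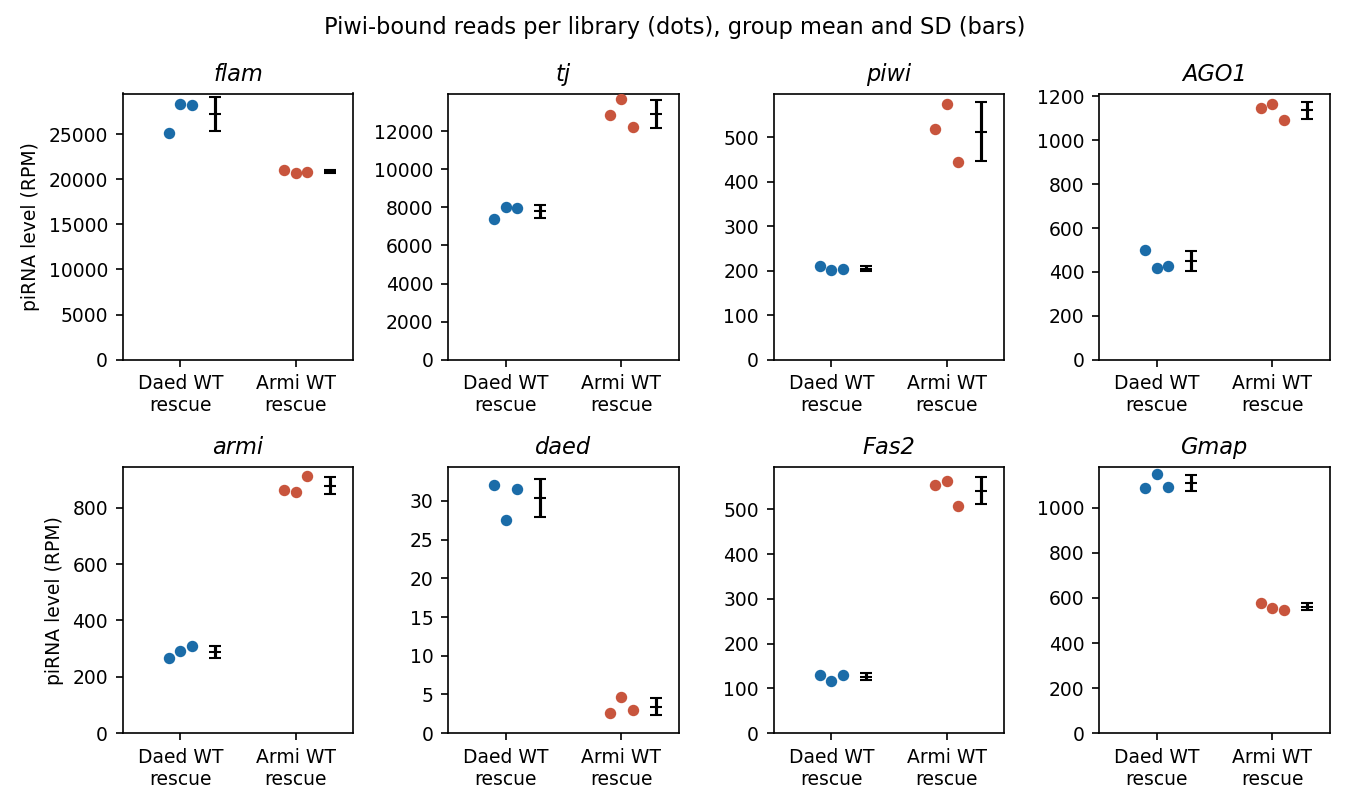
Level in RPM (vertical axes, each starting at 0) of 8 genes in the 3 libraries of each WT rescue (dots), with the group mean and SD beside them. The groups do not overlap at any of the 8: flam, daed and Gmap were lower in the Armi WT rescue, the other 5 higher.

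By gene class, protein-coding genes took 90.6 ± 0.383% of gene reads in the Daed and 93.6 ± 0.700% in the Armi WT rescue. Long noncoding RNA genes took 6.67 ± 0.419% and 4.22 ± 0.475%, most of it flam. Without flam the long noncoding share was 1.27, 1.15 and 1.31% in the Daed libraries and 0.699, 0.680 and 1.41% in the Armi libraries. Those groups overlapped through replicate 3 of the Armi WT rescue alone. Antisense RNA genes took 0.487 ± 0.0390% in the Daed and 0.299 ± 0.00922% in the Armi WT rescue. Of 21 antisense members 3 were higher and 10 lower in the Armi WT rescue, with a median of -0.38, against 1394 higher and 367 lower of 3650 protein-coding members. How the authors' counting treated strand is not given in the sources used here, so reads of an antisense gene and its partner cannot be told apart.

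Across all members 1429 (37.6%) were higher and 405 (10.7%) lower in the Armi WT rescue at an adjusted p under 0.05 (limma, Benjamini-Hochberg), and 1964 did not pass. Over the 7622 genes tested the corresponding shares were 20.1% higher and 7.07% lower, or 27.2% in either direction. Most differences were small. The median was 0.21 over members and 0.04 over all genes tested, and 2286 members (60.2%) lay within 0.5 of 0 on the log2 scale. A change of at least 2-fold with a pass on RPM came at 378 members, 341 of them higher. The same count over all genes tested was not made, so these counts have no background. Libraries did not overlap between groups at 2208 members, against 38.4% of all genes tested.

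The direction of these calls depended on what a library was scaled to. Scaled to the total of the gene table instead of the library, the log2 fold changes of the tested genes moved by a median of -0.33. On that scaling 789 members were higher and 1091 lower. With centring on the median gene the median move was 0.05, with 1537 higher and 304 lower. With TMM factors the median move was -0.11, with 1223 higher and 589 lower. There edgeR's count test on recovered reads also took the place of limma, so 2 choices changed at once. A set of 789 members was called higher and 304 lower in all 4 scalings (RPM, gene-table total and centring by limma, TMM by edgeR). The 789 are the members called higher on the gene-table total, and the 304 those called lower on centring. A call in all 4 scalings therefore adds nothing beyond the strictest scaling for its direction. The backgrounds of these counts were 11% and 5.42% of all genes tested. Without replicate 3 of the Armi WT rescue the counts were 755 and 306. The 4 scalings were combined after the data had been seen.

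**Figure D2:**
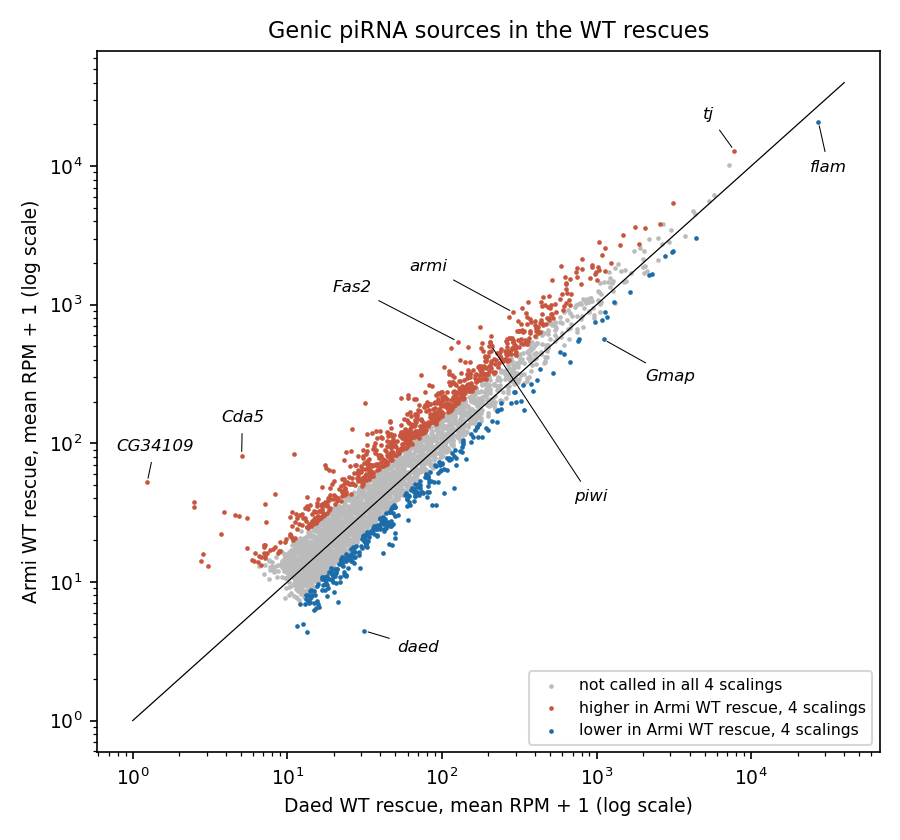
Mean level of the 3798 members in the Daed WT rescue (horizontal, RPM + 1, log scale) against the Armi WT rescue (vertical, RPM + 1, log scale), with the line of equality; red and blue mark the 789 members higher and 304 lower in all 4 scalings. Most points hug the line, and the labelled genes are named in the text.

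The 10 largest increases were chosen among members that passed the test without overlap and averaged 50 RPM or more in one group, and all 10 were called in all 4 scalings. At the top stood CG34109 (2L:10094088-10125736), which lies within CG44153. It gave 0, 0 and 0.716 RPM in the Daed and 44.7, 81.4 and 27.9 RPM in the Armi WT rescue. That was 1 read in all 3 Daed libraries together against 435 in the Armi libraries, a ratio of 255 with an exact 95% interval of 45.5 to 10096 for counting error only. The chitin deacetylase gene Cda5 followed, with 2.04, 4.41 and 5.73 RPM in the Daed and 76.3, 77.9 and 87.4 RPM in the Armi WT rescue (4.08 ± 0.22, adjusted p = 1.1e-13, limma). Cda5 libraries were thus low and close together in one group and high and close together in the other. Both CG34109 and Cda5 met the 10 RPM threshold through the Armi libraries alone. The hairpin RNA gene hpRNA:CR32205, a source of endogenous siRNAs, went from 10.0 ± 0.662 to 82.4 ± 5.35 RPM (2.92 ± 0.15).

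The other 7 of the 10 were as follows. The tyrosine kinase gene Abl gave 34.7, 32.6 and 25.1 RPM in the Daed and 174, 169 and 243 RPM in the Armi WT rescue (2.62 ± 0.14, adjusted p = 7.8e-14, limma). The receptor kinase gene Ret went from 53.1 ± 2.74 to 213 ± 17.4 RPM (1.98 ± 0.11). The cell adhesion gene Fas2 gave 130.0, 117 and 130.3 RPM in the Daed and 554, 564 and 507 RPM in the Armi WT rescue (2.10 ± 0.09, adjusted p = 3.9e-15, limma). Fas2 was the most abundant of the 10, with each Armi library far above each Daed library. The cadherin-binding protein gene p120ctn went from 113 ± 17.3 to 485 ± 51.5 RPM (2.09 ± 0.11). The early-endosome GTPase gene Rab5 went from 72.6 ± 9.35 to 312 ± 34.2 RPM (2.09 ± 0.11). The proton pump accessory gene VhaAC45 went from 25.0 ± 3.17 to 126 ± 30.1 RPM (2.27 ± 0.15), and the microtubule regulator gene stai from 16.4 ± 1.91 to 68.4 ± 9.34 RPM (1.99 ± 0.15).

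The 10 largest decreases by the same rule were smaller, between -1.39 and -0.88, and all 10 were called in all 4 scalings. CG8701 gave 84.6, 84.4 and 102 RPM in the Daed and 32.1, 24.8 and 48.2 RPM in the Armi WT rescue (-1.39 ± 0.16, adjusted p = 1.4e-07, limma). CG11635, on the same arm, gave 79.5, 113 and 115 RPM in the Daed and 37.9, 39.0 and 50.9 RPM in the Armi WT rescue (-1.24 ± 0.14). All Armi libraries were lower at both genes. CG8701 and CG11635 lie 11600 bp apart inside pdm3, a POU-domain transcription factor gene that was also lower, by less (108 ± 5.84 to 77.8 ± 2.63 RPM, -0.46 ± 0.11).

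A neighbouring pair on X included fs(1)Ya, a nuclear envelope protein gene, at 113, 124 and 119 RPM in the Daed and 39.7, 41.5 and 59.1 RPM in the Armi WT rescue (-1.34 ± 0.13). Its neighbour fs(1)Yb, which encodes the core protein of the Yb body and lies 127 bp away, was lower by less (121 ± 7.30 to 89.1 ± 1.53 RPM, -0.44 ± 0.10). The nested pair CG2898 and CG17841 went opposite ways. CG2898 was lower (59.2 ± 10.2 to 26.9 ± 6.76 RPM, -1.12 ± 0.16), and CG17841, within which it lies, was higher (25.5 ± 3.56 to 49.7 ± 3.55 RPM, 0.94 ± 0.15). The genes pdm3, fs(1)Yb and CG17841 were named after their values were seen, as neighbours of genes the rule named.

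The most abundant of these 10 decreases was at Gmap, a golgin of the Golgi, with 1087, 1151 and 1090 RPM in the Daed and 578, 557 and 548 RPM in the Armi WT rescue (-0.98 ± 0.08, adjusted p = 7.4e-11, limma). The Gmap libraries fell into 2 tight, separate groups. The antisense gene asRNA:CR42547, most of which overlaps CG15674, went from 339 ± 40.7 to 173 ± 20.0 RPM (-0.97 ± 0.10). The replication helicase subunit gene Mcm6 went from 78.7 ± 8.95 to 40.1 ± 1.46 RPM (-0.95 ± 0.13). CG9743 (-1.28), CG7914 (-0.91) and velo (-0.88), a SUMO protease gene, completed the 10.

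The difference climbed with the mean RPM by which members were binned. In 5 equal bins of members by mean RPM over the 6 libraries, the median log2 fold change was -0.05, 0.09, 0.17, 0.38 and 0.48 from the lowest bin to the highest. That mean includes the Armi libraries, so a gene higher in them can be placed in a higher bin. This by itself can raise the upper medians, and its size was not tested. Scaled to the gene-table total the medians were -0.38, -0.24, -0.16, 0.05 and 0.14, in the same order. Members called in either direction made up 21.4% of the lowest and 75.5% of the highest bin, where more reads give more power. Locus length moved along with abundance. The share of members higher in the Armi WT rescue was 23.2% in the shortest and 51.0% in the longest of 5 length bins. Their separate parts were not tested.

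**Figure D3:**
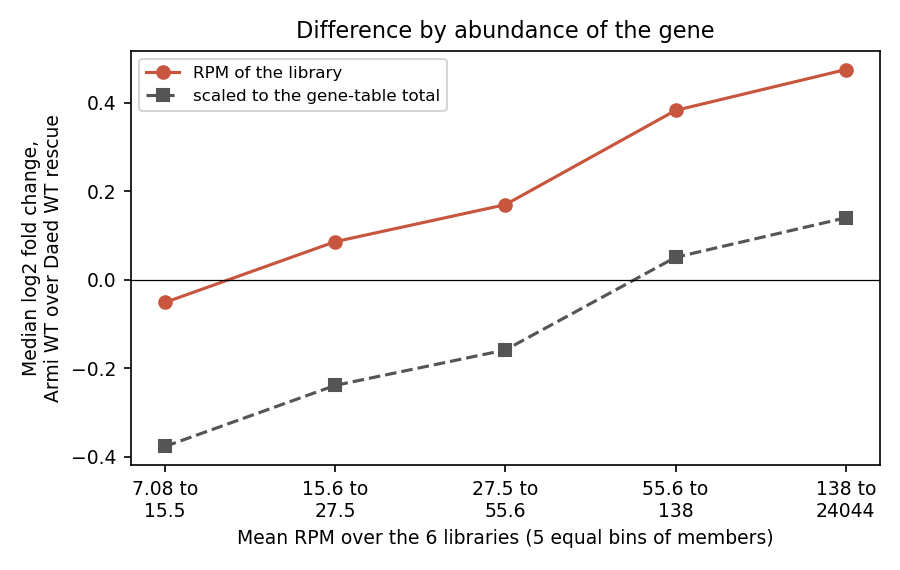
Median log2 fold change (Armi WT over Daed WT rescue) of members in 5 equal bins of mean RPM over the 6 libraries, on RPM of the library (circles) and scaled to the gene-table total (squares). Both lines climb from the lowest bin to the highest, from -0.05 to 0.48 and from -0.38 to 0.14. The mean used for binning includes the Armi libraries.

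Chromosome 4, which is small and largely heterochromatic, stood out after the data had been seen. Of its 55 members 41 (74.5%) were higher and 3 lower in the Armi WT rescue. On other chromosomes 37.1% of members were higher and 10.7% lower. In all 4 scalings 30 chromosome 4 members (54.5%) were higher, against 20.3% of members on other chromosomes. Its median was 0.70, against 0.21 elsewhere, and 0.37 against -0.12 scaled to the gene-table total. Chromosome 4 members were also more abundant (median 99.7 against 37.7 RPM) and longer (median locus 9754 against 4514 bp). Within the 5 abundance bins the chromosome 4 median was 0.25, 0.85, 0.54, 0.91 and 0.73, against -0.05, 0.08, 0.16, 0.37 and 0.47 for the others. These chromosome 4 medians rest on only 4, 12, 7, 8 and 24 members, with 0 called in the lowest bin. No test of the difference between chromosomes was made, since the chromosome was chosen for its values.

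Single genes of chromosome 4 showed this, and those below were likewise chosen after their values were seen. The Pax6 homologue ey gave 1.02, 2.76 and 0.716 RPM in the Daed and 28.5, 58.7 and 14.3 RPM in the Armi WT rescue (3.67 ± 0.36). The Armi libraries of ey were all higher but spread widely. Cals, a calsyntenin gene, gave 285, 276 and 247 RPM in the Daed and 853, 846 and 750 RPM in the Armi WT rescue (1.59 ± 0.09). The kinesin gene Kif3C went from 181 ± 1.83 to 531 ± 7.91 RPM (1.55 ± 0.08), and the TGF-beta ligand gene mav from 16.7 ± 4.59 to 64.9 ± 1.81 RPM (1.93 ± 0.17). A pair of pathway effectors lay there too, the Wnt effector gene pan (1.27 ± 0.11) and the Hedgehog effector gene ci (0.72 ± 0.08).

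The whole chromosome nevertheless took the same share of gene reads, 3.42 ± 0.0293% in the Daed and 3.44 ± 0.0727% in the Armi WT rescue. Some of its most abundant members differed little or were lower. Zip102B, a zinc transporter gene, went from 1306 ± 28.0 to 1051 ± 22.0 RPM (-0.31 ± 0.07) and CG11360 was lower, as above. PlexA, a semaphorin receptor gene, went from 3016 ± 100.0 to 3471 ± 230.5 RPM (0.20 ± 0.07), and it turned to -0.14 and did not pass on scaling to the gene-table total. The X chromosome took 23.3% of gene reads in the Daed and 20.7% in the Armi WT rescue, and 17.9% and 17.4% without flam.

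**Figure D4:**
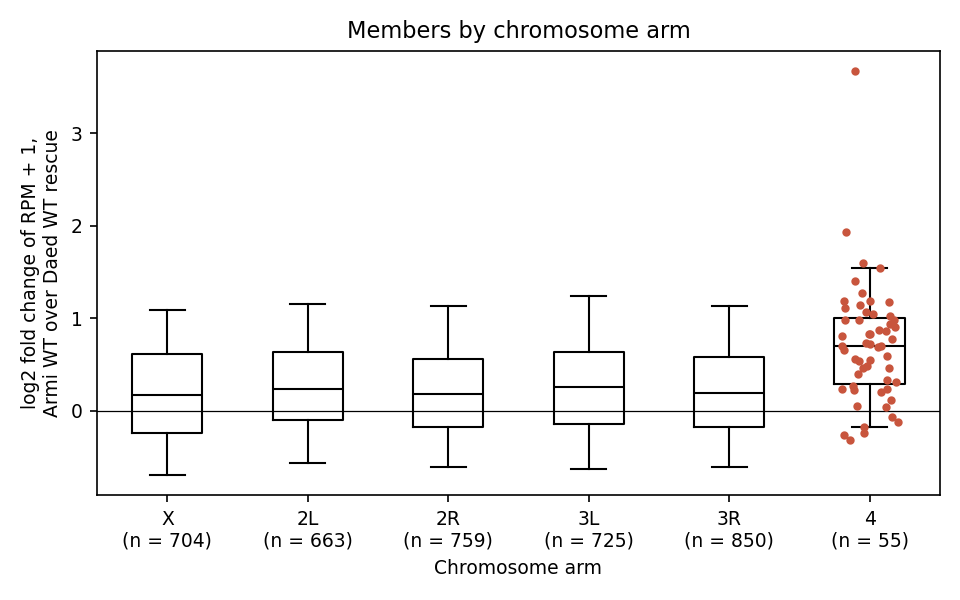
Log2 fold change (Armi WT over Daed WT rescue, on RPM + 1) of members by chromosome arm; boxes give the median and quartiles, whiskers the 5th and 95th percentiles, and dots the 55 chromosome 4 members, placed sideways at random. The chromosome 4 median of 0.70 lies above those of the other 5 arms, which run from 0.18 to 0.25.

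Genes of the piRNA pathway were themselves sources. In the paragraphs on lists, members beyond the 2 most abundant of each list were named after their values were seen. Not all of the 2 per list are described there. Of the 5 members of the mitochondrial processing list, 3 were higher and daed was lower. Besides armi these were Gasz, the mitochondrial scaffold that holds Armi (20.2 ± 2.45 to 33.4 ± 5.71 RPM, 0.69 ± 0.17), and mino, an acyltransferase gene (11.9 ± 2.23 to 18.2 ± 1.64 RPM, 0.59 ± 0.20). Neither held in all 4 scalings, and the Tudor protein gene papi did not pass (-0.02 ± 0.17). All 6 members of the Yb body and maturation list, armi again included, passed the test, 4 higher and 2 lower. SoYb (0.44), Hen1 (0.59) and Nbr (0.45), the last 2 of which modify and trim small RNA 3′ ends, were higher on RPM but not in all 4 scalings. Besides fs(1)Yb, the co-chaperone gene shu was lower (41.3 ± 3.84 to 27.0 ± 3.33 RPM, -0.60 ± 0.15), and both decreases held in all 4 scalings.

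In the nuclear silencing list 2 of 10 members were higher and 1 lower. The piwi gene itself gave 211, 201 and 203 RPM in the Daed and 520, 576 and 444 RPM in the Armi WT rescue. Every Armi library lay far above every Daed library at piwi, with a difference of 1.31 ± 0.09 (adjusted p = 1.6e-11, limma). The gene ova, whose product links the silencing complex to heterochromatin factors, went from 41.6 ± 6.35 to 88.8 ± 5.16 RPM (1.08 ± 0.13). The SUMO ligase gene Su(var)2-10 was the most abundant of the list and lower (2115 ± 220.0 to 1741 ± 45.0 RPM, -0.28 ± 0.08). That call was lost when Daed replicate 1 (adjusted p = 0.072) or Armi replicate 1 (adjusted p = 0.055, limma) was left out, and on centring (adjusted p = 0.056). Of 7 siRNA and microRNA machinery members 4 were higher and none lower. Among them AGO1, the microRNA Argonaute, gave 500.1, 417 and 428 RPM in the Daed and 1149, 1167 and 1095 RPM in the Armi WT rescue (1.35 ± 0.08, adjusted p = 1.2e-12, limma). Its partner gw was higher by 0.70 ± 0.09, and Dcr-2 did not pass (0.01 ± 0.08).

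Over all members 37.6% were higher and 10.7% lower, and the counts of each list are to be read against these shares. Of 8 follicle cell members 6 were higher, 4 of them in all 4 scalings, with bab1, a BTB transcription factor gene, at 7.14, 4.97 and 10.0 RPM in the Daed and 46.0, 42.0 and 37.7 RPM in the Armi WT rescue (2.40 ± 0.21). Of 9 epithelial polarity members 6 were higher, 4 in all 4 scalings, with a median of 0.67, the highest among lists of at least 5 members. The scaffold genes dlg1 (159 ± 6.56 to 335 ± 4.24 RPM, 1.07 ± 0.09) and scrib (182 ± 15.3 to 290 ± 21.2 RPM, 0.67 ± 0.09) were both higher, while their partner l(2)gl did not pass. The E-cadherin gene shg, which belongs to the basement membrane and adhesion list, went from 59.0 ± 6.00 to 212 ± 22.3 RPM (1.83 ± 0.11).

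Among 20 Hedgehog, Wnt and JAK-STAT members 10 (50.0%) were higher and 2 lower, 7 and 1 in all 4 scalings. The list's median was 0.26 on RPM and -0.06 scaled to the gene-table total, against 0.21 and -0.12 over all members. The Wnt receptor genes fz and fz2 were both higher. For fz the Daed libraries gave 56.6, 64.6 and 57.3 RPM and the Armi libraries 229, 245 and 191 RPM (1.88 ± 0.11), and fz2 went from 33.1 ± 4.25 to 68.2 ± 8.12 RPM (1.02 ± 0.14). The Hedgehog transducer gene smo went from 39.4 ± 2.69 to 80.4 ± 6.56 RPM (1.01 ± 0.12). In the EGFR and Ras list 5 of 13 members (38.5%) were higher and 1 lower, close to the shares over all members, with a median of 0.05 on RPM and -0.28 scaled to the gene-table total. The receptor gene Egfr was lower (203, 184 and 188 RPM against 134, 130.2 and 118 RPM, -0.59 ± 0.10). The ligand gene spi (145 ± 22.8 to 315 ± 17.7 RPM, 1.12 ± 0.10) and the GTPase gene Ras85D (27.6 ± 5.45 to 79.9 ± 4.76 RPM, 1.52 ± 0.14) were higher. The growth kinase gene S6k went from 209 ± 23.7 to 502 ± 25.8 RPM (1.27 ± 0.09), the only one of 6 higher members in the insulin and TOR list to hold in all 4 scalings.

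Smaller signalling lists were mixed. Of 7 ecdysone response members 3 were higher and none lower, among them the transcription factor gene Eip93F (4.46 ± 1.50 to 16.5 ± 2.07 RPM, 1.72 ± 0.26). Eip93F met the 10 RPM threshold through the Armi libraries alone, so its place in this count is no support for its difference. Of 5 Toll and Imd members 2 were higher, with the NF-kappaB gene dl at 331, 312 and 300.1 RPM in the Daed and 673, 633 and 629 RPM in the Armi WT rescue (1.04 ± 0.08). The JNK list had 1 of 5 higher and 1 lower, the ETS factor gene Ets21C (17.6 ± 2.48 to 9.50 ± 2.39 RPM, -0.84 ± 0.22). Of 10 basement membrane and adhesion members 5 were higher and none lower.

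Growth and cell biology lists behaved unevenly. Of 16 actin, tubulin and myosin members 6 were higher and 3 lower. Of 8 chaperone members 4 were higher and 2 lower, and the mitochondrial chaperone genes split, with Hsc70-5 higher (151 ± 5.15 to 299 ± 10.3 RPM, 0.98 ± 0.09) and Hsp60A lower (67.0 ± 9.95 to 43.7 ± 8.60 RPM, -0.61 ± 0.15). Of 12 clathrin and endocytosis members 6 were higher and none lower, 4 of the 6 in all 4 scalings. Of 19 cell cycle members 8 (42.1%, near the share over all members) were higher and none lower, 3 of the 8 in all 4 scalings, with a median of -0.05 scaled to the gene-table total. The late-endosome GTPase gene Rab7 (38.5 ± 3.77 to 121 ± 15.5 RPM, 1.62 ± 0.12) and the mitotic cyclin gene CycB (112 ± 6.06 to 261 ± 14.4 RPM, 1.22 ± 0.10) were among them. Of 17 members of the mRNA decay and poly(A) list 7 were higher and 3 lower. The deadenylase scaffold gene Not1 gave 340, 359 and 291 RPM in the Daed and 986, 1074 and 780.5 RPM in the Armi WT rescue (1.51 ± 0.10). The translational repressor gene pum went from 147 ± 6.74 to 498 ± 43.5 RPM (1.75 ± 0.09).

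Housekeeping lists sat at or below the member median. Of 76 cytosolic ribosomal protein members 7 were higher and 9 lower, with a median of 0.00, and of 23 nuclear oxidative phosphorylation members 1 was higher and 1 lower. Mitochondrial ribosomal proteins had 7 members, 1 higher and 2 lower. Of 34 translation factor members 7 were higher and 3 lower, with eIF4G2, an initiation factor of the eIF4G family, at 742 ± 26.1 and 1582 ± 159 RPM (1.09 ± 0.08). Its whole span is shared with CG33111 and CG34355. No member was higher among 16 proteasome genes (2 lower, median -0.23) or 12 nucleoporin genes (1 lower). Glycolysis had 2 of 9 higher and 3 lower, with Ldh, lactate dehydrogenase, at 36.8 ± 5.96 and 20.6 ± 5.28 RPM (-0.83 ± 0.18).

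Noncoding hosts of snoRNAs were the list with the lowest median, -0.41, and 5 of its 6 members were lower, 3 of them in all 4 scalings. For Uhg5 the Daed libraries gave 152, 173 and 183 RPM and the Armi libraries 104, 116 and 108 RPM (-0.62 ± 0.10, adjusted p = 2.5e-05, limma). Those groups were well separated. Uhg4 went from 38.6 ± 3.13 to 23.3 ± 3.15 RPM (-0.71 ± 0.16). The call on Uhg3 (-0.26) was lost without Daed replicate 2, Daed replicate 3 or Armi replicate 1 (adjusted p of 0.053 to 0.077, limma). That on Uhg8 (-0.35) was lost without Daed replicate 2 or Armi replicate 3 (adjusted p of 0.11 and 0.12). Centring lost both, with adjusted p of 0.099 for Uhg3 and 0.063 for Uhg8 (limma). Because calls depend on abundance, and the lists differ in it, nothing is claimed to be particular to any list. The median of mean RPM was 14.2 for proteasome, 45.9 for cytosolic ribosomal protein and 236 for epithelial polarity members.

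**Figure D5:**
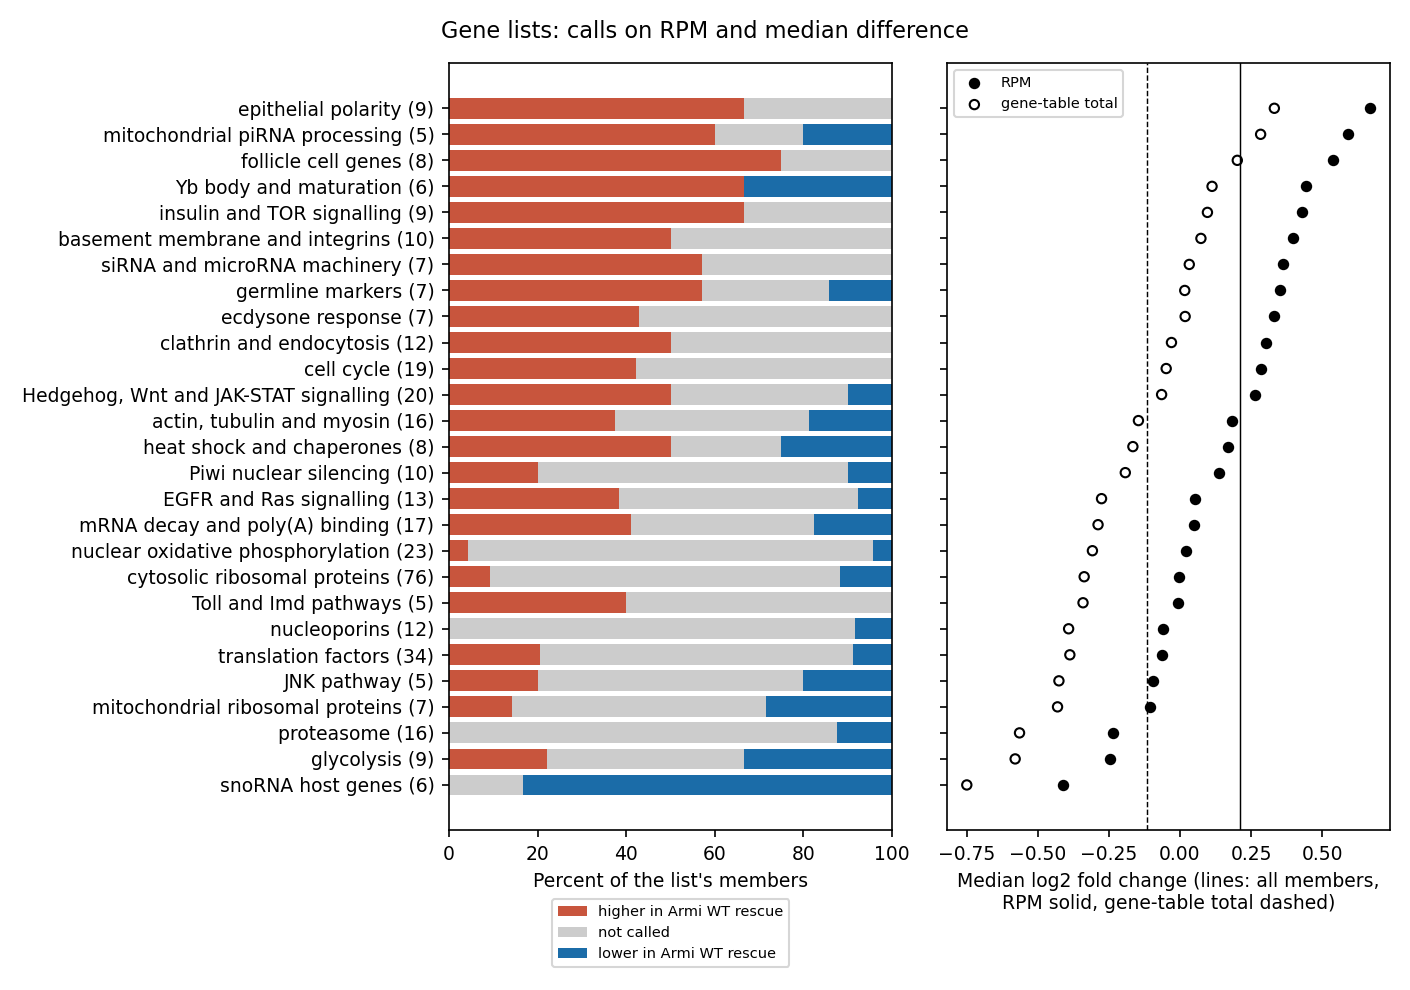
Left, percent of each list's members (number in brackets) that were higher, lower or not called at an adjusted p under 0.05 on RPM; right, the list's median log2 fold change on RPM (filled) and scaled to the gene-table total (open), with lines for all members. Lists with at least 5 members are drawn, and their medians run from -0.41 for snoRNA host genes to 0.67 for epithelial polarity on RPM.

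The variant rescues of the same 2 knockdowns, Daed lacking its SAM domain (deltaSAM) and the Armi variant labelled KEE, gave a second pair of Armi and Daed libraries that the calls above had not used. At the 10 largest increases the KEE mean was above the deltaSAM mean in all 10, for example 162 against 26.0 RPM at Cda5, 61.4 against 0.55 RPM at CG34109 and 1251 against 242 RPM at Fas2. At the 10 largest decreases the KEE mean was lower in 7. The exceptions were fs(1)Ya (21.2 RPM in deltaSAM and 24.2 RPM in KEE), Mcm6 (61.4 and 95.2 RPM) and velo (17.8 and 67.5 RPM). At Gmap, 1940 RPM in deltaSAM stood against 846 RPM in KEE.

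Over all members the difference between KEE and deltaSAM correlated weakly with the difference between the WT rescues (across 3798 genes, which are not independent, r = 0.27 and rho = 0.19). Of the 789 members higher in all 4 scalings, 676 (85.7%) were also higher in KEE than in deltaSAM, against 74.0% of all members. Of the 304 lower members 129 (42.4%) were also lower, against 26.0% of all members. All variant values here are on RPM, and no other scaling was applied to them. Genes took 58.0% of the deltaSAM and 79.5% of the KEE reads, and the median difference over all members was 0.67. The direction of the variant differences may thus also depend on the scaling, which was not tested. At piwi the variants gave 505 and 517 RPM, so the separation between the WT rescues at piwi had no counterpart there. At tj the order turned, with 16229 RPM in deltaSAM and 8669 RPM in KEE. The variants differ from the WT rescues in the protein supplied, so these values are set side by side only.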

How the data were processed

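Values were the authors' RPM per gene in the deposited gene table; per the file headers, reads had been scaled to library size. Per the submitters' processing notes STAR, HTSeq, dm6 and BDGP6 were used, with no versions given, and how multiply mapped reads and strand were treated is not given in the sources used here. The transposon table was not used here. Recovered reads were whole for 100% of values within 0.01. Of 17469 identifiers 17340 (99.3%) had a symbol, and 17292 had an entry in the RefSeq gene table, which gave dm6 coordinates. The plan had allowed for either unit.

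The test was limma-trend on log2(RPM + 1) with the 6 WT rescue libraries, over the 7622 genes with at least 1 RPM in at least 3 of them, with Benjamini-Hochberg adjustment over all of these and a threshold of 0.05. Shares were compared by exact two-sided permutation. edgeR's quasi-likelihood test with TMM factors on the recovered reads called 1812 members and DESeq2 1467. The fit was also run on counts simulated independently per gene at a common dispersion. That setting is simpler than the data, so it does not show how the fit performs on them. Alternatives covered scaling, filters, pseudocounts, all 12 libraries in 1 fit, a replicate block, thinning to the smallest library, structural RNA genes and leaving out each library.

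The naming rule gave the 10 most abundant and the 10 largest differences in each direction (mean of at least 50 RPM, no overlap). It also gave armi, daed, flam, tj, piwi and zuc, and the 2 most abundant of each list. Not all of the 2 per list are described above. Those left out include drk (0.39), kek1 (0.69), Hsp83 (0.36), Hsc70-3 (0.53), CycG (0.58), Dp (0.75) and Eno (-0.30). Others are mostly marked in the text, and several, such as Ras85D, CycB and Rab7, had larger differences. Members, rule and the 30 lists were chosen with earlier results of these data known, and lists were described without a test. The listed symbols sov, nos, Tor, zip, Orc1 and Smg1 were not analysed here. Fits used limma 3.58.1, DESeq2 1.42.0 and edgeR 4.0.16 in R 4.3.3. Summaries used scipy 1.17.1, pandas 2.3.3 and numpy 2.4.6 in Python 3.11.15, and plots matplotlib 3.10.9.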

Additional observations from a re-analysis of the deposited data

How the results depend on the processing

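The direction of many calls rests on the scaling. Scaled to the gene-table total, 789 members were higher and 1091 lower, against 1429 and 405 on RPM. The number called ran from 1467 to 1963 over the other settings, with 1853 under a replicate block; same-numbered libraries deviated together with r of -0.03, 0.11 and 0.08, so the numbers were not read as pairs. Leaving out 1 library gave 1511 to 1780 called, 1224 to 1383 higher and 287 to 397 lower, a difference in genic share of 12.8 to 14.0 points, in flam share of -2.38 to -1.99, in the share of the 10 most abundant genes of -2.63 to -2.36, and 37 to 41 chromosome 4 members higher.

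Some named genes changed sign. On the gene-table total these were Dcr-2 (-0.33), Eip75B (-0.16), Nup98-96 (-0.29), Rac1 (-0.16), RpL5 (-0.24), RpS10b (-0.13), brat (-0.29), crol (-0.16), crq (-0.16), futsch (-0.31), kay (-0.15), l(2)gl (-0.24), msk (-0.26), shi (-0.22) and tud (-0.067). With edgeR they were Dcr-2 (-0.098), Nup98-96 (-0.046), RpL5 (-0.013), brat (-0.052), futsch (-0.13), l(2)gl (-0.013) and msk (-0.048), and with DESeq2 Dcr-2 (-0.086), Nup98-96 (-0.037), RpL5 (-0.00105), brat (-0.039), futsch (-0.11), l(2)gl (-0.000993) and msk (-0.036). Centring turned Nup154 (0.031) and papi (0.028), and thinning futsch (-0.11) and ush (0.16). Leaving out 1 library, the difference spanned 0 at brat (-0.018 to 0.15), msk (-0.032 to 0.22), papi (-0.14 to 0.12), Dcr-2 (-0.030 to 0.041), ush (-0.18 to 0.017), futsch (-0.12 to 0.18), Prosbeta3 (-0.28 to 0.058), Nup154 (-0.11 to 0.053) and Nup98-96 (-0.073 to 0.19). Centring shifted all genes by the amount given above. For the gene-table total that amount was only the median, and genes with few reads in a group moved otherwise. CG34109 went from 5.32 on RPM to 5.79 on the gene-table total, and daed from -2.85 to -3.29. For the other settings the cause was not tested.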

Other observations

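The genes ey and CG34109, on different chromosomes and chosen after their values were seen, varied in the same order across the Armi libraries. In replicates 1, 2 and 3 of the Armi WT rescue CG34109 gave 44.7, 81.4 and 27.9 RPM and ey 28.5, 58.7 and 14.3 RPM. In the KEE rescue of the same knockdown CG34109 gave 19.9, 64.6 and 99.6 RPM and ey 13.5, 56.3 and 60.6 RPM. In the deltaSAM rescue of the Daed knockdown the highest values were 1.10 RPM for CG34109 and 2.72 RPM for ey. Cda5, 1 member picked for its comparable level, gave 76.3, 77.9 and 87.4 RPM in the Armi WT rescue. Other members varied too. Replicate 2 of the Armi WT rescue lay at least 2-fold from its mates at 15 members and replicate 3 at 20. An order shared over 3 libraries can arise by chance, and it was not tested.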
